A study of Homo sapiens with 6 samples.

Results

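The genes followed here encode 9 factors of mRNA decapping and 5′-to-3′ decay. They were measured in RT4, an established bladder cancer line of papillary, non-muscle invasive origin. They were found by their symbols among the 57905 genes of the deposited tables, and all 9 were present: *DCP1A*, *DCP1B*, *DCP2*, *EDC3*, *EDC4*, *XRN1*, *LSM1*, *PATL1* and *DDX6*. The set was chosen by the fold change of *DCP2*, which was seen to be higher after depletion of *LEADR* in these same libraries. That change is therefore given as a description without a test. The question put to the data is whether its 8 partners, taken for their function, changed. They were chosen with earlier results of these data known, which their p values do not allow for. RT4 cells of genotype WT were transfected for 48 h with a scramble siRNA (Scramble, 3 libraries) or with a single siRNA against *LEADR*, the spliced transcript of *MIR205HG* (LEADR-KD, 3 libraries), and poly(A) RNA was sequenced. No other *LEADR* siRNA and no untransfected cells are among these libraries. The methods of the study speak of biological replicates, but neither they nor the labels say that the 3 samples of a group came from separate cultures, so p values cover the spread between these samples, part of which may be technical.

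An mRNA leaves translation by losing its poly(A) tail, after which the 5′ cap is removed and the body is digested from the 5′ end. DCP2 is the enzyme that cuts the cap. DCP1A and DCP1B bind and activate it, EDC3 and EDC4 join it to its activators and scaffold the complex, and the ring of LSM1 to LSM7 together with PATL1 and the RNA helicase DDX6 carries deadenylated mRNA to it. XRN1 then digests the uncapped RNA. Many of these proteins gather in cytoplasmic granules called P-bodies.

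The deposited counts summed to between 15706033 and 18960822 per library. *MIR205HG*, the gene of the target, was counted 511, 337 and 346 times in Scramble 1, 2 and 3, against 113, 211 and 101 times in LEADR-KD 1, 2 and 3 (adjusted p = 0.00180 from edgeR at a log2 fold change of -1.47). The mitochondrial share of a library was 11.9%, 4.57% and 3.06% with the scramble siRNA, and 10.8%, 5.73% and 4.79% after depletion. All 10 urothelial and epithelial markers examined were detected, with a summed level of 6618 to 7324 CPM in Scramble and 8017 to 8639 CPM in LEADR-KD, and 7 leukocyte, endothelial and fibroblast markers summed to at most 3.39 CPM in any library, with *COL1A2* and *PDGFRB* at 0 in all 6. CPM are counts relative to the library total after TMM scaling (trimmed mean of M values). In RNA from a whole culture, fewer cells that express a gene and less RNA of it per cell cannot be told apart.

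*DCP2*, on chromosome 5 from 112312399 to 112356667 (GRCh37, also known as hg19, + strand), gave 944, 1085 and 995 counts with the scramble siRNA. After depletion it gave 2516, 2747 and 2729. In CPM these were 55.6, 55.7 and 59.4 against 158, 151 and 155, or 56.9 ± 2.17 and 154 ± 3.26 (SD, n = 3). The groups lay far apart and each was tight. The log2 fold change of 1.44 (95% interval 1.27 to 1.61), a fold of 2.71, is the value that chose the set. The interval does not allow for that choice and is no test of *DCP2*.

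Of the 8 partners, 1 fell in *LEADR*-depleted cells, the helicase gene *DDX6*, and none rose. The 6 others tested, *DCP1A*, *EDC3*, *EDC4*, *LSM1*, *PATL1* and *XRN1*, did not pass, and *DCP1B* had too few counts to be tested. The test was edgeR's quasi-likelihood test on the 14178 genes with enough counts, 8 of the 9 members among them, at a Benjamini-Hochberg adjusted p under 0.05 over all genes. Of all genes tested 24.4% were called, 12.2% higher and 12.1% lower, and 1 of 7 tested partners lower is 14.3%, close to that background. DESeq2 and limma on log2(FPKM + 1) both called 0 partners higher and 1 lower. Over all genes, DESeq2 called 1866 higher and 1770 lower of 14178, and limma 1480 higher and 1297 lower of 13339. The median log2 fold change of the 7 partners was 0.0462, beside -0.0118 over all genes tested, and the median of its size, whatever the direction, was 0.142, beside 0.25.

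**Figure D1:**
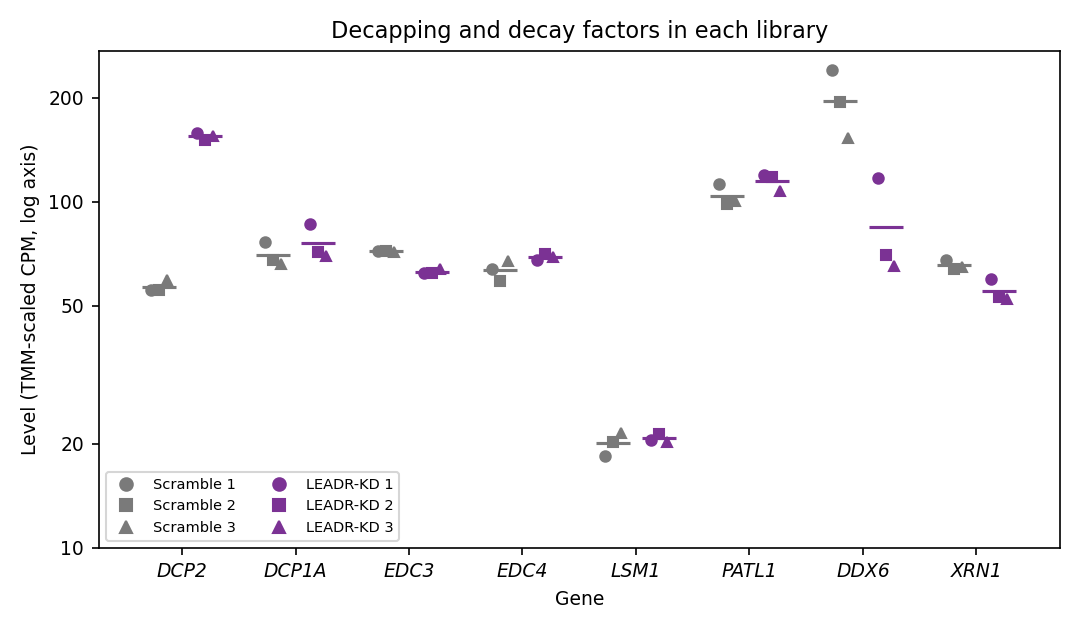
Level of the 8 tested members in each library, in TMM-scaled CPM on a log axis, where grey marks Scramble, purple marks LEADR-KD, the shape gives the replicate number and short lines show the group means (n = 3). The 3 LEADR-KD libraries of *DCP2* (151 to 158) sit above those of Scramble (55.6 to 59.4), those of *DDX6* (65.2 to 117) sit below (153 to 240), and the other genes differ by less.

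*DDX6*, on chromosome 11 from 118620034 to 118661858 (GRCh37, − strand), went in the direction opposite to *DCP2*. Its counts were 4079, 3782 and 2561 with the scramble siRNA, and 1875, 1278 and 1151 after depletion, that is 240, 194 and 153 against 117, 70.3 and 65.2 CPM. Every LEADR-KD library lay below every Scramble library, although the spread within the groups was wide (196 ± 43.7 and 84.3 ± 28.8 CPM, SD, n = 3). The log2 fold change was -1.22 (standard error 0.21, 95% interval -1.68 to -0.76, adjusted p = 0.00156 from edgeR), a level of 0.43 of that in Scramble. The libraries numbered 1 were the highest for *DDX6* in both groups and also had the largest mitochondrial share, and the part of that share in the result was not tested. With TMM and library sizes taken without the mitochondrial genes, which mainly alters the scaling, the call was kept. It was lost without both libraries numbered 2 (adjusted p = 0.0505 from edgeR at a log2 fold change of -1.11) and also when limma was run on log2(FPKM + 1) over unfiltered genes (adjusted p = 0.0548). Over 20 alternatives the log2 fold change lay between -1.53 and -1.04 and the adjusted p between 1.19e-30, from edgeR without a filter on low genes, and 0.0548.

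*XRN1*, the exonuclease gene that acts after decapping, had 67.7, 63.9 and 65.0 CPM in Scramble and 59.9, 53.1 and 52.5 CPM in LEADR-KD, so the groups did not overlap. Its log2 fold change of -0.25 (95% interval -0.44 to -0.05) had an adjusted p of 0.0644 from edgeR. Without LEADR-KD 1 it was -0.31 and passed (adjusted p = 0.0376), and it also passed with a stricter filter on low genes (0.0379). The adjusted p ranged from 0.0174 to 0.298 over its alternatives.

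The enhancers of decapping were on opposite sides of 0 and neither passed. *EDC3* had 71.9, 72.0 and 71.7 CPM in Scramble and 62.4, 62.1 and 64.0 CPM in LEADR-KD, with almost no spread inside a group and no overlap, at a log2 fold change of -0.19 (95% interval -0.37 to -0.02, adjusted p = 0.0993 from edgeR). *EDC4* had 63.9, 58.9 and 67.6 CPM against 67.7, 70.6 and 69.1 CPM. Here the highest Scramble and the lowest LEADR-KD library were almost equal, and the log2 fold change was 0.12 (95% interval -0.07 to 0.31, adjusted p = 0.342 from edgeR). The groups did not overlap for 4 of the 7 partners tested, *DDX6*, *XRN1*, *EDC3* and *EDC4*, and they did not for 39.8% of all genes tested.

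Among the direct cofactors of the enzyme, *DCP1A* had 76.7, 67.7 and 66.0 CPM in Scramble and 86.2, 71.6 and 69.9 CPM in LEADR-KD. The groups overlapped, and the log2 fold change was 0.11 (95% interval -0.11 to 0.34, adjusted p = 0.477 from edgeR). Its paralogue *DCP1B* had 0 counts in 5 libraries and 3 counts in LEADR-KD 1. A count of 0 allows up to 3 counts, or 0.154 to 0.179 CPM in the 5 libraries at 0, which covers counting error only. *DCP1B* was therefore not detectable at this depth in 5 of the 6 libraries.

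The activators *PATL1* and *LSM1* overlapped between the groups. *PATL1* had 113, 98.4 and 101 CPM in Scramble and 120, 118 and 107 CPM in LEADR-KD (log2 fold change 0.14, 95% interval -0.05 to 0.33, adjusted p = 0.269 from edgeR). *LSM1* had 18.4, 20.3 and 21.5 CPM against 20.5, 21.4 and 20.3 CPM. Its log2 fold change of 0.05 (95% interval -0.21 to 0.30, adjusted p = 0.814 from edgeR) turned negative without Scramble 1 and with library totals alone. For the 6 partners that did not pass, the intervals reach no further from 0 than -0.44 and 0.34 on the log2 scale, while that of *DDX6* starts at -0.76.

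**Figure D2:**
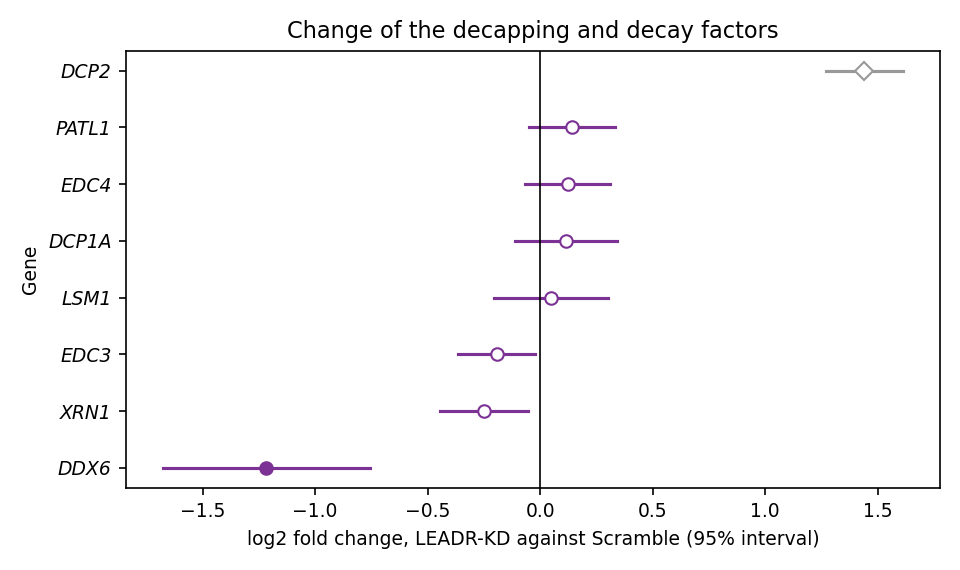
Log2 fold change of the 8 tested members with its 95% interval, LEADR-KD against Scramble, in purple with a filled point for an adjusted p under 0.05, and in grey with a diamond for *DCP2*, which is shown without a test. *DDX6* at -1.22 is the 1 filled point, and *DCP2* at 1.44 is about as far from 0 on the other side.

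Levels of different genes were compared per length, in the deposited FPKM (fragments scaled to the length of the gene and to a constant of the library). In Scramble the order of the means was *PATL1* (24.1 ± 1.78 FPKM, SD, n = 3), *DDX6* (19.6 ± 4.39), *EDC3* (13.9 ± 0.0492), *LSM1* (11.8 ± 0.894), *DCP1A* (11.3 ± 0.933), *EDC4* (10.2 ± 0.685), *DCP2* (5.66 ± 0.208) and *XRN1* (5.41 ± 0.157). The libraries overlapped between *PATL1* and *DDX6*, between *LSM1*, *DCP1A* and *EDC4* in turn, and between *DCP2* and *XRN1*. In LEADR-KD *PATL1* stayed first at 26.8 ± 1.57 FPKM, *DCP2* was second at 15.5 ± 0.382 FPKM, apart from both of its neighbours, and *DDX6* was seventh at 8.51 ± 2.94 FPKM, where it overlapped with *EDC4*. *XRN1* stayed the lowest of the 8, at 4.59 ± 0.360 FPKM, and *DCP1B* was at 0 or 0.0527 FPKM throughout.

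**Figure D3:**
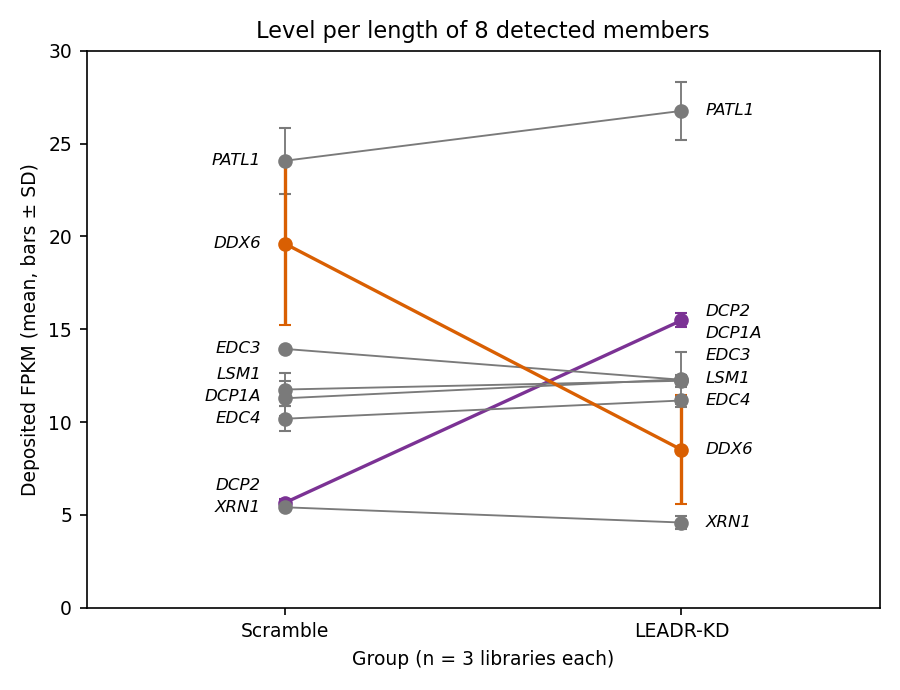
Deposited FPKM of 8 members in Scramble and LEADR-KD, as means with bars of ± SD (n = 3 libraries each), with *DCP2* in purple and *DDX6* in orange. *DCP2* goes from 5.66 to 15.5 and crosses *DDX6*, which goes from 19.6 to 8.51, while the means of the other genes move by less.

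The mRNA level of *DCP2* relative to its partners is given as a description, since the change of *DCP2* chose the set. The libraries hold no measure of protein, and ratios between genes depend on the gene lengths used for FPKM. The ratio of *DCP2* to *DDX6* in FPKM was 0.230, 0.285 and 0.386 with the scramble siRNA and 1.33, 2.14 and 2.36 after depletion. Relative to its activator *DCP1A*, *DCP2* went from 0.448, 0.509 and 0.557 to 1.13, 1.30 and 1.37, and relative to *EDC4* from 0.540, 0.586 and 0.545 to 1.45, 1.33 and 1.39. *DCP2* was below *DDX6*, *DCP1A*, *EDC3*, *EDC4* and *LSM1* in each Scramble library and above them in each LEADR-KD library, below *PATL1* in all 6, and close to *XRN1* in Scramble at 0.989 to 1.10. The summed FPKM of the 9 members overlapped between the groups, at 109, 99.4 and 97.7 in Scramble and 110, 101 and 98.4 in LEADR-KD. Within that sum *DCP2* took 5.09% to 6.04% in Scramble and 14.4% to 15.7% in LEADR-KD, and *DDX6* 15.6% to 22.1% and 6.68% to 10.8%.

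**Figure D4:**
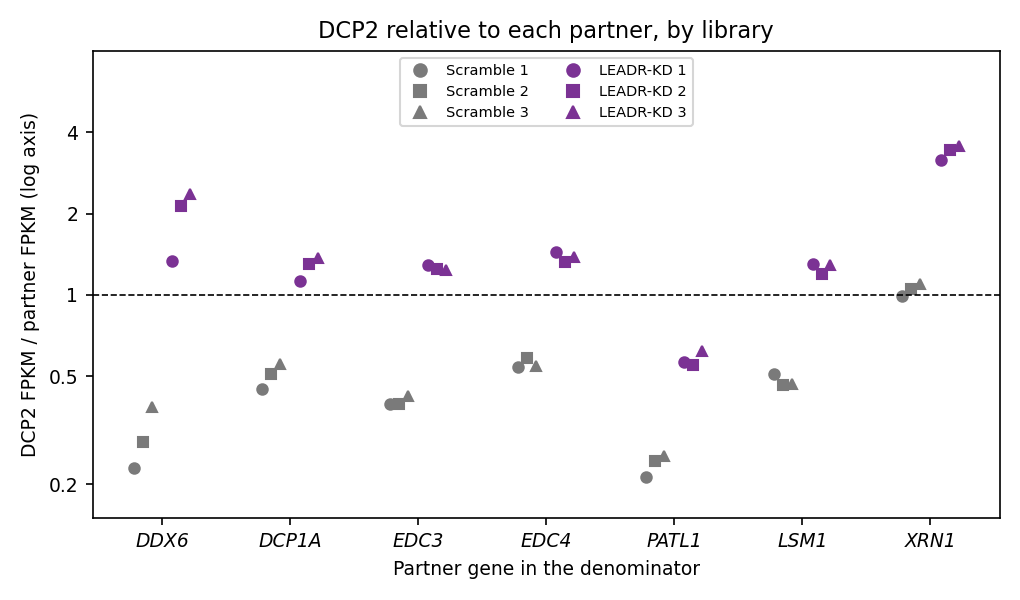
Ratio of *DCP2* to each of 7 partners in deposited FPKM, by library, drawn on a log axis with a dashed line at 1 (grey, Scramble; purple, LEADR-KD). The ratio to *DDX6* spans the widest range, from 0.230 to 2.36, and that to *PATL1* stays under 1 in all 6 libraries.

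The siRNA against *LEADR* is shown here with the bases of each strand, 2 to 8 from the 5′ end, through which small RNAs mostly pair with 3′ untranslated regions (UTRs) in capitals. The complementary strand was derived as the full reverse complement of the listed one, written without overhangs. Its bases 2 to 8 rest on that choice, and which strand acts in the cells was not examined. The letters were looked for in the 3′ UTRs of the canonical transcripts of GENCODE v44 on GRCh37, on the strand of the mRNA only.
Listed strand: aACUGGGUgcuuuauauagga
Complementary strand: uCCUAUAUaaagcacccaguu

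For the listed strand the 7-base match is ACCCAGT, the 8-base match is ACCCAGTA and the 6-base match inside both is CCCAGT. A further 7-base match is CCCAGTA. Of the 8 tested members 3 held a 7- or 8-base match. These were *DDX6*, which was lower after depletion, and *XRN1* and *EDC3*, which did not pass. The windows of 30 bases around these matches, and the 1 window of *DCP2* with the 6-base match, are given 5′ to 3′ along the mRNA with the match in capitals.
DDX6, 8 bases, chr11:118622190-118622219, − strand: cttccctttctACCCAGTActcgagcccag
DDX6, 7 bases, chr11:118620934-118620963, − strand: attcccttttaACCCAGTgtactaggtcaa
XRN1, 7 bases, chr3:142027077-142027106, − strand: aaataagacatACCCAGTcactgcattttt
EDC3, 7 bases, chr15:74922984-74923013, − strand: ctgcccatagtACCCAGTtcccaaggggcc
DCP2, 6 bases, chr5:112352077-112352106, + strand: aaggaaagtctCCCAGTgctgtcaaaggaa

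Long 3′ UTRs hold such letters often. Of the 12139 tested genes with a 3′ UTR, 17.8% held a 7- or 8-base match to the listed strand. Among genes with a 3′ UTR within 20% of the length of that gene's, the share was 37.1% for *DDX6* (4342 bases), 40.2% for *XRN1* (4901 bases) and 19.8% for *EDC3* (2054 bases), and 6.34% of those like *DDX6* held the 8-base match. *DCP2*, whose 3′ UTR of 8711 bases is the longest of the set, held only the 6-base match, and 90.5% of genes with 3′ UTRs of like length held that or more. *DCP1A* and *PATL1* held only CCCAGT, and *EDC4* and *LSM1*, with 3′ UTRs of 351 and 331 bases, held none of these matches. For the complementary strand as derived, *XRN1* held the 8-base match ATATAGGA, which 9.16% of genes of like length held. *DCP2* held TATAGGA, and *PATL1* held TATAGG. These matches describe the letters of the reference, and their part in the values above was not tested.

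Genes that overlap may share reads, since it is not stated whether strand was used in the counting. In the deposited annotation no gene overlaps *DCP2*, and the 1 antisense gene that overlaps *DDX6* had 0 counts. On the opposite strand, *CLK3* overlaps *EDC3* (48.4 ± 5.77 and 45.9 ± 5.40 CPM) and *BAG4* overlaps *LSM1* (36.3 ± 5.04 and 39.4 ± 11.1 CPM), and neither passed (adjusted p = 0.699 and 0.678 from edgeR). The tested genes nearest to *DCP2* did not pass either. They were *REEP5*, *CTC-487M23.5* and *SRP19* on one side, with log2 fold changes of 0.11, 0.46 and -0.01, and *MCC*, *CTD-2201G3.1* and *YTHDC2* on the other, with -0.24, 0.38 and -0.02. *MCC*, on the opposite strand, lies 1129 bases from the end of *DCP2* in the deposited annotation, while in GENCODE v44 the ends of these genes overlap by 90 bases.

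The genes whose pattern over the 6 libraries was most like that of *DCP2* were *UBE2B*, which encodes a ubiquitin-conjugating enzyme, *EFHD2*, *BTBD1*, *ORC1*, a gene of the origin recognition complex, and *ZW10*, a kinetochore gene, with Pearson correlations of log2 CPM from 0.9985 to 0.9997. Their log2 fold changes were 0.98, 1.503, 0.64, 0.51 and 0.80. The points share the difference between the groups, and 79 of 14177 genes were above 0.99. The correlation with *DCP2* was -0.989 for *EDC3*, -0.887 for *DDX6* and -0.877 for *XRN1*, and 0.735 for *EDC4*, 0.666 for *PATL1*, 0.428 for *DCP1A* and 0.357 for *LSM1*, over the same 6 libraries.

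Beyond the set, 70 further genes of mRNA decay were looked up, of which 69 were tested and *PATL2* was too low. In LEADR-KD 5 rose and 10 fell (edgeR), that is 7.25% and 14.5%, beside the 12.2% and 12.1% of all genes, and their median log2 fold change was -0.0708. They were lists of roles, written with earlier results of these data known.

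Closest to the set were the remaining subunits of the LSM ring and the P-body proteins. *LSM6* was higher after depletion, from 8.98 ± 1.17 to 18.02 ± 1.65 CPM (adjusted p = 5.88e-04 from edgeR at a log2 fold change of 1.00; SD, n = 3), while *LSM2*, *LSM3*, *LSM4*, *LSM5* and *LSM7* did not pass, with log2 fold changes from -0.31 to 0.08. *PNRC1* fell from 32.5 ± 5.09 to 22.2 ± 4.35 CPM (adjusted p = 0.0283 from edgeR at a log2 fold change of -0.55). The call was lost when Scramble 1 (0.0946), Scramble 2 (0.0831), LEADR-KD 2 (0.0731) or LEADR-KD 3 (0.0994) was left out. With all 6 libraries DESeq2 kept it (adjusted p = 0.00757). It was lost with limma on log2(FPKM + 1) (0.0656, or 0.164 over unfiltered genes) and on log2(FPKM + 0.1) (0.0642). The adjusted p of *PNRC1* ranged from 3.34e-04 to 0.176 over the alternatives. *PNRC2*, whose product links the decapping complex to nonsense-mediated decay, is annotated at 2 copies that may share reads. The copy on the main sequence of chromosome 1 had 106 counts in LEADR-KD 2 and 7 to 32 in the others and did not pass (adjusted p = 0.452 from edgeR at a log2 fold change of 0.88). The copy on the separate sequence GL000191.1, at 20.3 ± 1.87 and 11.3 ± 1.53 CPM, had a log2 fold change of -0.85 (adjusted p = 0.00132 from edgeR). How the reads fall between the copies is uncertain. With both copies summed, an alternative chosen after the values were seen, the counts were 366, 450 and 338 in Scramble against 215, 303 and 191 in LEADR-KD, each LEADR-KD library lay below each Scramble library, and *PNRC2* fell by 0.66 on the log2 scale (95% interval -1.01 to -0.32, adjusted p = 0.0104 from edgeR). *LSM14A*, *LSM14B*, *EIF4ENIF1*, which encodes a partner of DDX6 that binds the cap-binding protein, and *NBDY*, found by its identifier, did not pass.

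Of the other enzymes that act on caps, *NUDT3* fell from 36.8 ± 3.59 to 19.6 ± 1.79 CPM (adjusted p = 2.80e-04 from edgeR at a log2 fold change of -0.91). *DCPS*, the scavenger of cap remnants, *NUDT16*, *NUDT12*, *DXO* and the nuclear exonuclease gene *XRN2* did not pass, and *XRN2* was at a log2 fold change of 4.27e-04.

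Removal of the poly(A) tail precedes decapping. Of 15 genes of the CCR4-NOT and PAN deadenylases, PARN and the TOB adaptors, 2 rose and 3 fell (edgeR). That is 13.3% and 20%, beside the 12.2% and 12.1% of all genes tested. *CNOT1*, the scaffold of CCR4-NOT, went up from 245 ± 24.5 CPM to 350 ± 45.0 CPM (adjusted p = 0.00512 from edgeR at a log2 fold change of 0.51) and *CNOT10* by 0.62. The call of *CNOT1* was lost without both libraries numbered 2 (adjusted p = 0.0816) and with limma over unfiltered genes (0.0569), with a range of 2.31e-06 to 0.0816 over the alternatives. The catalytic subunit gene *CNOT8* fell by 0.46 on the log2 scale, and *TOB1* and *TOB2*, whose products bring CCR4-NOT to mRNA, fell from 195 ± 17.4 to 117 ± 8.19 CPM and from 139 ± 9.44 to 91.0 ± 3.88 CPM. The call of *CNOT8* was lost without both libraries numbered 2 (adjusted p = 0.0647, range 1.96e-04 to 0.0647).

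In the competing 3′-to-5′ route, 1 of 17 genes rose and 1 fell, both subunits of the SKI complex. That is 5.88% in each direction, below the 12.2% and 12.1% of all genes tested. *TTC37* rose by 0.41 (adjusted p = 0.00647 from edgeR) and the helicase gene *SKIV2L* fell from 83.6 ± 6.15 to 60.2 ± 1.75 CPM. The call of *TTC37* was lost without both libraries numbered 2 (adjusted p = 0.0727, range 5.23e-04 to 0.0727). None of the 10 exosome subunit genes passed.

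Of 10 genes of nonsense-mediated decay 0 rose and 2 fell (edgeR), that is 20% lower beside 12.1% of all genes. DESeq2 and limma both called 0 higher and 2 lower. *SMG5* fell from 154 ± 4.28 to 126 ± 4.22 CPM, by 0.30 on the log2 scale (adjusted p = 0.0140 from edgeR), and the helicase gene *UPF1*, at a log2 fold change of -0.13, did not pass. The call of *SMG5* was lost when Scramble 3 (adjusted p = 0.0531) or LEADR-KD 2 (0.0676) was left out, with a range of 0.00239 to 0.125 over the alternatives. Among 9 genes of proteins that bind AU-rich or stem-loop elements, *HNRNPD*, which encodes AUF1, fell from 286 ± 17.3 to 148 ± 15.3 CPM (adjusted p = 3.44e-05 from edgeR at a log2 fold change of -0.95). *ZFP36L2* rose by 0.47. That call was lost without LEADR-KD 2 (adjusted p = 0.0703 from edgeR), with library totals alone (0.0644 from edgeR) and with limma over unfiltered genes (0.102). The ribonuclease gene *ZC3H12A* fell by 0.90 on the log2 scale with overlapping groups (adjusted p = 0.0238 from edgeR), and did not pass by DESeq2 (0.0859) or without Scramble 3 (0.0758, at a log2 fold change of -0.57), LEADR-KD 1 (0.0582) or LEADR-KD 2 (0.0816). The adjusted p of *ZFP36L2* ranged from 1.54e-05 to 0.102 and that of *ZC3H12A* from 7.91e-14 to 0.218 over the alternatives.

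**Figure D5:**
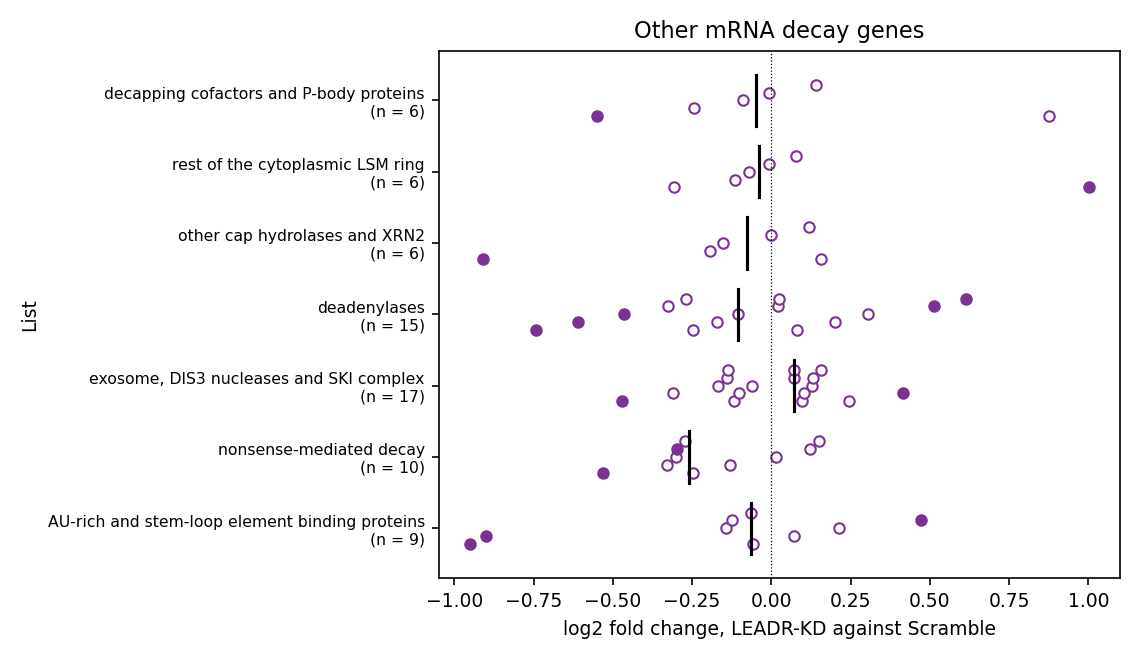
Log2 fold change of each of the 69 tested genes of 7 mRNA decay lists, LEADR-KD against Scramble, where a filled point has an adjusted p under 0.05 and the vertical black lines give the medians of the lists. The 15 filled points, 5 right and 10 left of 0, are spread over all 7 lists and none reaches as far as *DCP2* or *DDX6*.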

How the data were processed

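Poly(A) RNA of RT4 cells was measured in 3 Scramble and 3 LEADR-KD libraries, assigned by the submitters' labels. The authors deposited raw counts per gene. HISAT2 2.0.5, featureCounts 1.5.0-p3 and hg19 come from the submitters' processing notes, and Salmon from the paper's methods. Whether the counting used strand is not stated, although the library was directional. The deposited FPKM values equal the count over gene length and a library constant. A table of the authors' own DESeq2 fold changes and p-values was not used.

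The groups were compared in edgeR 4.0.16 (R 4.3.3; quasi-likelihood test, TMM, filterByExpr with a minimum count of 10, no covariate), tested on simulated data. Of 57905 genes 25957 had a count and 14178 were tested, with a biological coefficient of variation of 12.6%. The standard error is the log2 fold change divided by the square root of F, and the 95% interval uses the moderated degrees of freedom. DESeq2 1.42.0 and limma 3.58.1, on log2(FPKM + 1) or log2(FPKM + 0.1), were alternatives, as were other scalings, filters, left-out libraries and a replicate block. The named genes are all members, *MIR205HG*, up to 4 genes per list and direction, those of largest change among the called, the 5 genes most correlated with *DCP2*, and genes overlapping a member or nearest to *DCP2*. Not every gene that this rule takes is reported here. Genes that did not pass are named beside them to complete the lists. Members and lists were chosen with earlier results of these data known.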

Additional observations from a re-analysis of the deposited data

How the results depend on the processing

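Over the 20 alternatives no partner of *DCP2* was higher, and between 0 and 2 were lower, beside 1 in the report. There were 0 with limma on log2(FPKM + 1) without a filter and without both libraries numbered 2, and 2, *DDX6* and *XRN1*, with the stricter filter of a mean of 5 CPM, without LEADR-KD 1 and with the replicate block; with 1 library left out the count was 1 to 2. The further decay genes were 5 higher and 10 lower, but 3 higher with limma on log2(FPKM + 1) without a filter and 3 higher and 6 lower without both libraries numbered 2. With the replicate block 7 were higher and 15 lower. Over all alternatives 3 to 7 were higher and 6 to 15 lower. The log2 fold change of *DCP2* was 1.39 with library totals alone, 1.31 with limma on log2(FPKM + 1), with or without a filter, and 1.49 without both libraries numbered 3. That of *LSM1* reversed to -0.000804 with library totals alone, -0.00948 without Scramble 1 and -0.00742 without both libraries numbered 1, and with 1 library left out it lay between -0.00948 and 0.0979. The causes were not tested. Summing both *PNRC2* copies, chosen after seeing the data, gave 5 higher and 11 lower further decay genes.

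The replicate numbers are shared between the groups. Deviations from the group means correlated at 0.227, 0.00058 and 0.266 for the libraries numbered 1, 2 and 3. Those numbered 1 and those numbered 3 correlated best with each other, but Scramble 2 did not correlate best with LEADR-KD 2. The libraries were not taken as pairs, although these values do not exclude a pairing. The replicate block raised the genes called from 1736 higher and 1719 lower to 2489 and 2365. With it the adjusted p from edgeR was 0.0174 for *XRN1* and 7.17e-09 for *DDX6*. At this depth *DCP1B* could not be compared.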

Other observations

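Matches to the siRNA were also counted in the 69 further decay genes that were tested. A 7- or 8-base match to the listed strand was in the 3′ UTR of 3 of the 10 that fell, *HNRNPD* and *SMG5* among them, of 0 of the 5 that rose and of 7 of the 54 that did not pass. Over all tested genes with a 3′ UTR these shares were 34.0% of those that fell, 13.4% of those that rose and 15.7% of those that did not pass, with median 3′ UTR lengths of 1698, 1719 and 1230 bases. *TOB1*, *CNOT8*, *PNRC1*, *SKIV2L* and *ZC3H12A* fell and held no match to the listed strand.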
